A study of Mus musculus with 8 samples.

Results

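The 10 genes described here cover the urea cycle and its mitochondrial and plasma membrane supply lines: Nags, Cps1, Otc, Ass1, Asl, Arg1, Slc25a13, Slc25a15, Car5a and Slc7a2. They were taken by gene symbol from a table of 48440 genes, and all 10 were found, each under 1 Ensembl identifier. As a pathway they were selected on the log2 fold changes between knockout and control livers in these same libraries, so their own fold changes are a description and carry no p-value. RNA was sequenced from the whole livers of 8 CD1 mouse pups. Of these, 4 carried a germline deletion of Myo5b, which encodes the vesicle motor myosin Vb (animals 275, 276, 277 and 278), and 4 were littermate controls, either Myo5b heterozygous or wildtype (animals 279, 280, 281 and 282). The labels do not say which of those controls are heterozygous, give ages only as 3 to 8 days, and list neither sex nor litter for each pup. The deletion is in the germline, so every tissue of the knockout pups lacks the intact gene.

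The urea cycle turns ammonia, which is toxic to the brain, into urea for excretion, and in mammals the complete cycle runs mainly in periportal hepatocytes. Carbamoyl phosphate synthetase (Cps1) joins ammonia to bicarbonate inside the mitochondrion, and depends on N-acetylglutamate made by Nags. Car5a, a mitochondrial carbonic anhydrase, makes bicarbonate. Ornithine transcarbamylase (Otc) forms citrulline, which leaves the mitochondrion in exchange for ornithine through Slc25a15, and the cytosolic enzymes Ass1, Asl and Arg1 complete the turn. Slc25a13, called citrin, exports the aspartate that Ass1 uses, and Slc7a2 carries arginine, ornithine and lysine across the plasma membrane.

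Library totals ran from 14228268 to 18398039 counts. Levels are given as CPM, the count per 1e6 counts after TMM scaling to a common library composition. A gene is called rising or falling at an adjusted p under 0.05 in edgeR's quasi-likelihood test over all 18274 genes tested. By that rule 20.7% of the tested genes were called, 9.27% higher and 11.4% lower in knockout livers. Myo5b itself averaged 49.3 ± 7.06 CPM in knockout livers and 133 ± 33.1 CPM in control livers (SD, n = 4 each). Erythroid markers were lower in the knockout livers (12 of 12 tested, median log2 fold change -1.82). Their summed level was 2114 to 4340 CPM in knockout livers and 8485 to 11244 CPM in control livers. In a whole-liver library, fewer cells of a type and less RNA per cell cannot be told apart.

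Promoter sequences are shown for the 3 genes that fell furthest, because they differ in CpG content. RefSeq (GRCm38.p6) gave a window for 6 of the 10 genes, and the 250 bases before the RefSeq start were read. No CpG lies in the Car5a window and 1 lies in that of Otc, against 23 in that of Ass1. The same window held 11 CpG in Nags and 11 in Slc25a13, and 11 and 43 in the alternative starts of Slc25a15. By the GENCODE gene starts used elsewhere here, the Ass1 window runs past the start at 31470207. By the same measure the Slc25a15 window with 43 CpG lies wholly inside the gene. Over all 32851 promoters the median was 6, and 18.8% held 0 or 1. Capitals mark each CpG, and sequences run 5′ to 3′ on the gene's strand.
Car5a (chr8:121944913-121945162, minus strand): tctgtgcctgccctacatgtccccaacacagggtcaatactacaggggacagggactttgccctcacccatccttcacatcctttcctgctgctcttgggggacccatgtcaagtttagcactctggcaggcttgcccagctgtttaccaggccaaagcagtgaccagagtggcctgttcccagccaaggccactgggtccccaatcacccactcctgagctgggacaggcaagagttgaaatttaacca
Otc (chrX:10252055-10252304, plus strand): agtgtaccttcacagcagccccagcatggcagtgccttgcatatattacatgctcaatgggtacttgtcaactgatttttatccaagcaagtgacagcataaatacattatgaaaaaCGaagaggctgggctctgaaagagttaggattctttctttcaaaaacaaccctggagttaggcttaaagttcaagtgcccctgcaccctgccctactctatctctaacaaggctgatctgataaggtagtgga
Ass1 (chr2:31470020-31470269, plus strand): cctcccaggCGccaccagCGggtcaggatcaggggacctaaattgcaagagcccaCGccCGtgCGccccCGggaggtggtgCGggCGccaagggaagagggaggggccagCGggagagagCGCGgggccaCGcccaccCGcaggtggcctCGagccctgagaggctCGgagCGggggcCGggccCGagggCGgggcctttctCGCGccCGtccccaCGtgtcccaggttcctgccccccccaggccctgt
Otc and Ass1 had nearly the same fold change with CpG counts far apart. The GC box GGGCGG, searched on both strands, was in the windows of Ass1, Nags and Slc25a15 and in 32.7% of all promoters. The TATA box TATAAA (12.4% of all promoters), the C/EBP core TTGCNNAA (9.56%), the cyclic AMP response element TGACGTCA (1.55%), the HNF4 form CAAAGTCCA (0.384%) and a glucocorticoid receptor palindrome (0.387%) were in none of the 7 windows. Some of these motifs can overlap each other. A match describes letters only.

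Of the 10 genes, 7 fell, 1 rose and 2 did not pass the test, beside the 11.4% called lower and 9.27% called higher among all genes tested. The median log2 fold change was -0.56, against 0.01 over all genes tested. In 8 of the 10 genes the knockout values did not overlap the control values, as in 23.6% of all genes tested. Since the genes were listed with this contrast known, these counts are not evidence about the pathway. The genes together took 0.240% ± 0.0238 of all counts in the knockouts, against 0.330% ± 0.0332 in the controls (mean and SD of 4 livers). Cps1 alone accounted for 0.105% ± 0.0162 in the knockouts and 0.173% ± 0.0199 in the controls.

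**Figure D1:**
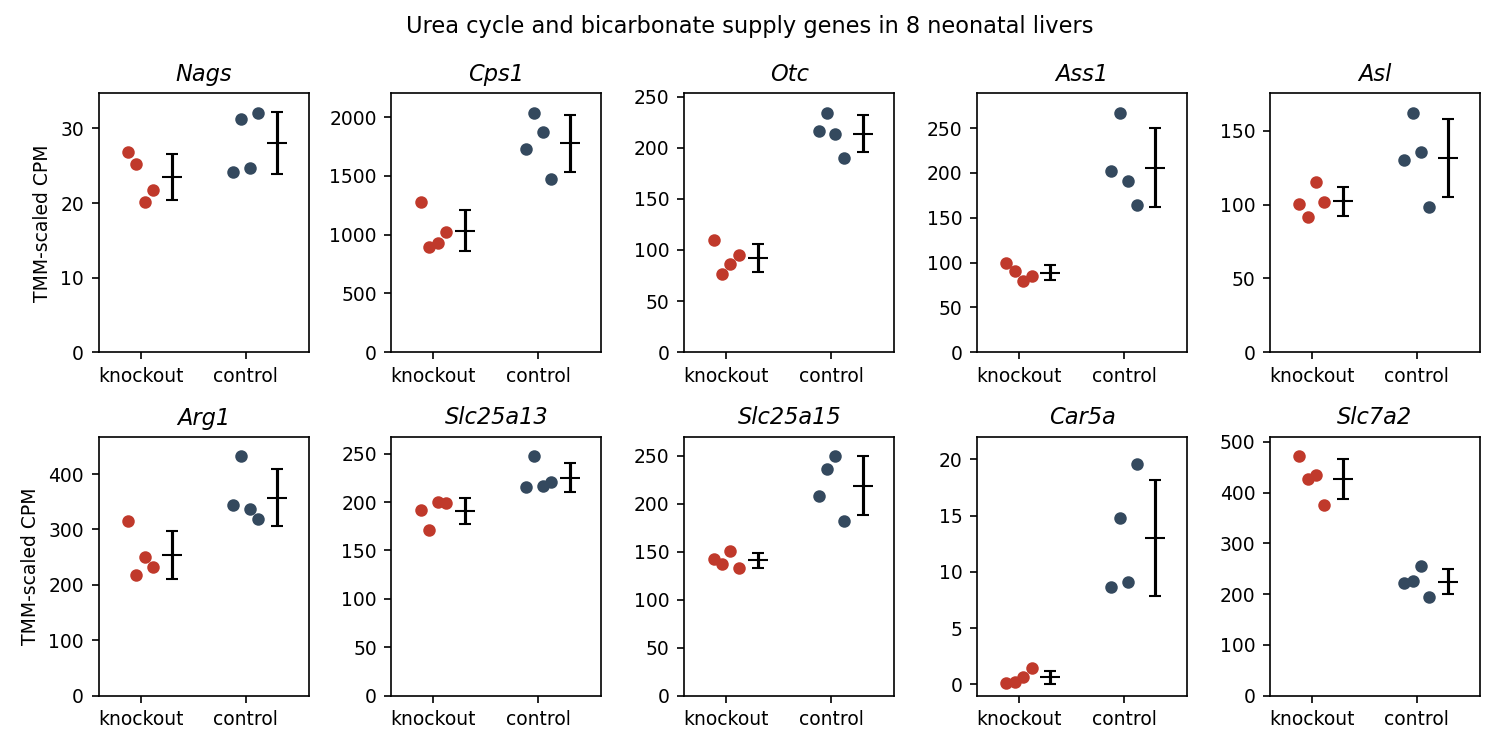
Level of each of the 10 genes (TMM-scaled CPM, vertical axis from 0, except Car5a, where the axis begins just below 0) in each liver; points are single livers and bars the mean and SD of 4. Knockout and control points overlap only for Nags and Asl, and Slc7a2 is the gene whose knockout points lie above the controls.

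Car5a (chromosome 8, 121916126 to 121944904, minus strand, GRCm38), a mitochondrial carbonic anhydrase, fell furthest of the 10. It had 0.116, 0.256, 0.685 and 1.46 CPM in knockout livers 275 to 278, against 8.70, 14.8, 9.14 and 19.6 CPM in control livers 279 to 282. Every knockout value lay below every control value, and knockout 278 and control 282 were the highest of their groups. The level in knockout livers was 4.88% of the control level (log2 fold change -4.36, SE 0.57). These values rest on 2, 4, 13 and 24 counts in the knockout libraries and 134, 221, 154 and 279 in the control libraries, so single knockout values are imprecise. Without knockout 278 the log2 fold change was -5.14. Knockout 278 also had the highest erythroid marker level of the knockouts, and the part of that in the result was not tested. The 3′ end of Car5a shares 314 exon bases with the opposite-strand transcript BC048644, which had at most 14 counts in any library.

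The first enzymes of the cycle differed in how far they fell. Cps1 (chromosome 1, 67123026 to 67231259, plus strand), which commits ammonia to the cycle, had 1282, 896, 930.3 and 1026 CPM in knockout livers, against 1731, 2038, 1869 and 1469 CPM in control livers. The groups did not overlap, and the highest knockout, 275, was still below the lowest control, 282. The log2 fold change was -0.78 (SE 0.12), a level 58.2% of control. Nags (chromosome 11, 102145513 to 102149477, plus strand), which makes the activator of Cps1, had 26.8, 25.2, 20.2 and 21.7 CPM in knockout livers, against 24.2, 31.2, 24.7 and 32.1 CPM in control livers. The groups overlapped, and Nags did not pass the test (log2 fold change -0.26, SE 0.13). Otc (chromosome X, 10252305 to 10321024, plus strand), which makes citrulline from carbamoyl phosphate and ornithine, had 109.8, 76.6, 86.5 and 95.3 CPM in knockout livers. In controls Otc had 217, 234, 213 and 190.4 CPM. Each knockout liver was thus well below the lowest control, and the log2 fold change was -1.21 (SE 0.10), or 43.1% of the control level.

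Because Cps1 and Otc sit next to each other in the pathway, their counts were also compared within each library, where scaling plays no part. The log2 ratio of Cps1 counts to Otc counts was 3.55, 3.55, 3.43 and 3.43 in knockout livers 275 to 278, against 3.00, 3.12, 3.13 and 2.95 in control livers 279 to 282. Otc was therefore lower relative to Cps1 in each knockout liver than in any control. The log2 ratio of Ass1 to Otc was -0.05 ± 0.19 in knockout livers and -0.07 ± 0.18 in control livers (SD, n = 4 each), a difference smaller than the spread between livers. That of Arg1 to Otc was 1.46 ± 0.12 in knockout livers and 0.74 ± 0.10 in controls. Cps1 and Arg1 counts were thus higher relative to Otc in knockout livers, and Ass1 counts were not separable from it.

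The cytosolic enzymes showed the same unevenness. Ass1 (chromosome 2, 31470207 to 31520672, plus strand), which joins citrulline to aspartate, had 99.1, 90.5, 79.4 and 85.3 CPM in knockout livers. In control livers Ass1 had 202, 267, 190.5 and 164 CPM. Control 280 was the highest and control 282 the lowest, and no knockout reached either (log2 fold change -1.22, SE 0.13). Asl (chromosome 5, 130011258 to 130029247, minus strand), which splits argininosuccinate into arginine and fumarate, had 100.2, 91.8, 116 and 101 CPM in knockout livers, against 130.5, 162, 135 and 98.2 CPM in control livers. Control 282 lay among the knockouts, and Asl did not pass the test (log2 fold change -0.36, SE 0.13). It passed without control 282 (-0.48), without knockout 277 (-0.43), in DESeq2 (-0.36) and with no low-count filter (-0.36). Arg1 (chromosome 10, 24915221 to 24927484, minus strand), which releases urea, had 316, 218, 249.8 and 232 CPM in knockout livers. In control livers Arg1 had 343, 432, 336 and 318 CPM. Knockout 275 came within a few CPM of control 282, and the groups did not overlap (log2 fold change -0.49, SE 0.12).

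Both mitochondrial carriers fell, by unequal amounts. Slc25a15 (chromosome 8, 22375551 to 22398597, minus strand), the ornithine carrier, had 142, 137, 151 and 133 CPM in knockout livers, against 208, 237, 249.5 and 181 CPM in control livers. The knockout livers were close together and all below the controls (log2 fold change -0.64, SE 0.10). Slc25a13 (chromosome 6, 6041218 to 6217173, minus strand), citrin, averaged 191 ± 13.2 CPM in knockout livers and 225 ± 14.996 CPM in control livers (SD, n = 4 each). The groups did not overlap, with the highest knockout at 200.03 CPM and the lowest control at 215 CPM. Its log2 fold change was -0.24 (SE 0.08). That call was lost without any single library other than knockout 278 (-0.27 to -0.20 over all single omissions), and with library size alone (-0.17), median-ratio scaling (-0.24), upper-quartile scaling (-0.21) or no low-count filter (-0.24). It was also lost without knockout 278 and control 282 together (-0.27).

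Slc7a2 (chromosome 8, 40862396 to 40922308, plus strand), the cationic amino acid transporter, was the gene of the 10 that rose. It had 472, 427, 434 and 375 CPM in knockout livers, against 222, 227, 256 and 195 CPM in control livers. Every knockout was above every control, and the log2 fold change was 0.93 (SE 0.10), a level 189.9% of control. The lincRNA Gm26584 overlaps 635 bases of Slc7a2 exon on the opposite strand, and without a stated strand setting reads from the overlap cannot be told apart. Gm26584 had 131 to 538 counts per library against 2782 to 8247 for Slc7a2, and it rose too (24.99 CPM in knockout livers and 10.6 CPM in control livers on average; log2 fold change 1.24, SE 0.16). Macrophages also express Slc7a2 and Arg1. Kupffer and macrophage markers rose in the knockout livers (10 of 11, median log2 fold change 0.71), with a summed level of 1467 to 1743 CPM against 852 to 965 CPM in control livers. Their part in the Slc7a2 result was not tested.

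**Figure D2:**
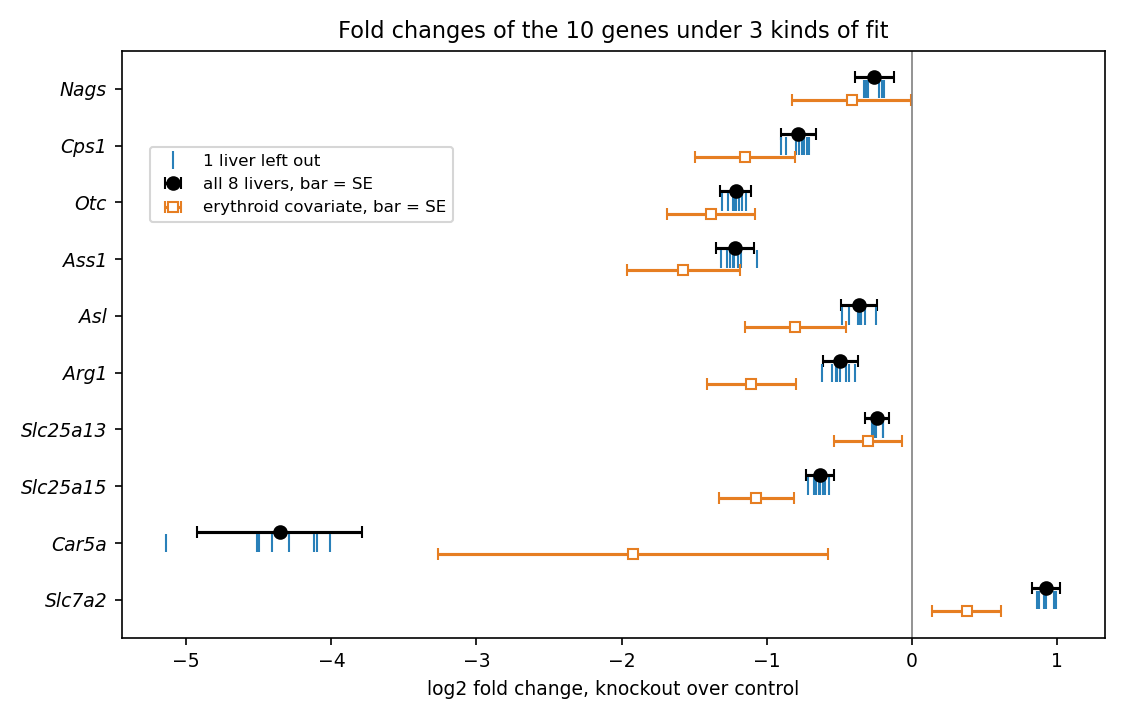
Log2 fold change of each gene, knockout over control (horizontal axis), from all 8 livers (circles, bar = SE), with 1 liver left out (blue ticks) and with erythroid marker level as a covariate (squares, bar = SE). Car5a lies at -4.36 and Slc7a2 at 0.93 with all livers, and the covariate fit has wider bars for every gene.

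With mean erythroid marker level as a covariate, 0 of the 10 genes were called in edgeR. At an unadjusted p under 0.05, 6 were lower and 0 higher, against 8 and 1 without the covariate. The share of all tested genes at that cut was not computed. Since the genes were listed with this contrast known, these counts are not evidence about the pathway. The covariate correlated with genotype at -0.941 across the 8 libraries, so the fit has little left to separate them. The SE of the 10 genes was 0.23 to 1.34 in that fit and 0.08 to 0.57 without the covariate. The direction held for each gene, 9 lower and 1 higher. In 8 genes the log2 fold change was larger in size with the covariate, among them Cps1 (-1.15), Otc (-1.39), Ass1 (-1.57), Arg1 (-1.11) and Slc25a15 (-1.07). Car5a (-1.92, SE 1.34) and Slc7a2 (0.38, SE 0.24) were the genes whose change was smaller.

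Per kilobase of exon, Cps1 was the most abundant of the 10 transcripts in either genotype. In control livers the order of levels was Cps1 (319.9 ± 43.3 CPM per kilobase), Arg1 (161 ± 22.8), Ass1 (85.3 ± 18.1), Slc25a13 (59.3 ± 3.95), Otc (50.4 ± 4.26), Slc25a15 (38.9 ± 5.41), Asl (27.2 ± 5.43), Slc7a2 (24.6 ± 2.72), Nags (9.89 ± 1.48) and Car5a (9.75 ± 3.85; SD, n = 4 each). Slc25a15 and Asl, Asl and Slc7a2, and Nags and Car5a overlapped between livers, and the other neighbours in the order did not. In knockout livers Slc7a2 was number 4 in the order, at 46.7 ± 4.37 CPM per kilobase, and its values overlapped those of Slc25a13 above it (50.2 ± 3.47) and Ass1 below it (36.7 ± 3.47). Otc was number 7 at 21.7 ± 3.32 CPM per kilobase, overlapping Slc25a15 (25.02 ± 1.32) and Asl (21.2 ± 2.04). That place depended on the length used. By the longest transcript Otc was number 8 in knockout livers (30.7), below Asl (42.4) and Slc25a15 (31.8). In control livers Asl (54.5) was then above Slc25a15 (49.4). Car5a was last in both genotypes by merged exons, at 0.469 ± 0.450 CPM per kilobase in knockout livers. In control livers its place below Nags depended on the length used, since by the longest transcript Car5a was at 10.5 and Nags at 10.3 CPM per kilobase.

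**Figure D3:**
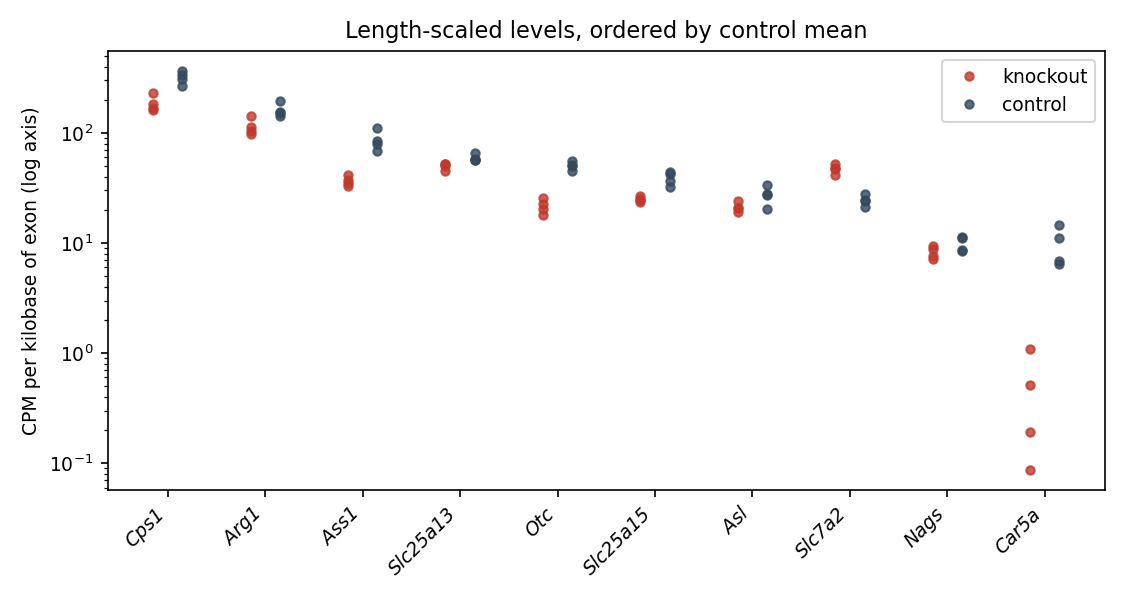
Level of each gene per kilobase of merged exon (CPM per kilobase, log axis) in single livers, ordered by the control mean. Cps1 is highest in both genotypes, and the Car5a points of knockout livers lie far below those of controls and are spread most widely.

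The highest and lowest livers of each genotype were also counted over the 10 genes. The same counts over all tested genes were not made. Among controls, liver 280 had the highest level of 6 of the 10 genes and liver 282 the lowest level of 7. Among knockouts, liver 275 was highest for 6 genes and liver 276 lowest for 5. Liver 282 was nonetheless the highest control for Car5a and Nags. The within-group coefficient of variation was smallest for Slc25a15 in knockout livers (5.28%) and for Slc25a13 in control livers (6.66%), and largest for Car5a (96.0% in knockout livers and 39.5% in controls).

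Close relatives of these genes were examined next. Car5b, the other mitochondrial carbonic anhydrase, averaged 1.22 ± 0.465 CPM in knockout livers and 1.32 ± 0.620 CPM in control livers (SD, n = 4 each). Its log2 fold change was -0.12 (SE 0.48, adjusted p = 0.901), and its sign changed without knockout 277 (0.02), knockout 278 (0.02) or control 279 (0.19). Arg2, the mitochondrial arginase, averaged 2.61 CPM in knockout livers and 1.96 CPM in control livers (log2 fold change 0.42, SE 0.35, adjusted p = 0.453), or 0.17 without control 281. Slc25a12, the aspartate and glutamate carrier related to citrin, averaged 19.6 CPM in knockout livers and 23.0 CPM in control livers (log2 fold change -0.23, SE 0.13, adjusted p = 0.236). Slc25a2, a second ornithine carrier, was near 1 CPM in both genotypes (log2 fold change 0.37, SE 0.48, adjusted p = 0.650). Its log2 fold change was 0.12 without control 280, 0.19 without knockout 277, 0.59 without knockout 275 and 0.64 without control 279, not called in any of them. Slc7a3 was too low to be tested. Slc7a1, the widely expressed cationic amino acid transporter, had 19.3, 19.1, 19.5 and 29.4 CPM in knockout livers, against 34.8, 25.1, 32.5 and 25.5 CPM in control livers. Knockout 278 overlapped the controls, and Slc7a1 did not pass the test (log2 fold change -0.44, SE 0.16, adjusted p = 0.0619), but it did without that liver (-0.61), in limma-voom (-0.51) and with no low-count filter (-0.43).

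Of 88 genes that feed, use or regulate the cycle, 81 could be tested, of which 11 rose and 17 fell. Among all genes tested, 9.27% were called higher and 11.4% lower. The median log2 fold change of the 81 was -0.03. In the group that delivers ammonia and glutamate, 4 of 16 genes rose and 4 fell, or 2 fell without control 280. Gls2, the liver glutaminase that is active beside Cps1 in periportal cells, fell to 56.1 ± 14.3 CPM in knockout livers, against 132 ± 17.4 CPM in control livers (4 livers each, SD; log2 fold change -1.23, SE 0.19, adjusted p = 0.0018 in edgeR). Got2, the mitochondrial aspartate aminotransferase that makes aspartate for the cycle, fell as well (-0.44, SE 0.09, adjusted p = 0.00266). Gpt2, the mitochondrial alanine aminotransferase, rose (0.58, SE 0.13, adjusted p = 0.00332). With the erythroid covariate, which correlated with genotype at -0.941, Gls2 was called at a larger change (-2.57, SE 0.35). Knockout 278 had the lowest Gls2 level (35.6 CPM) and the highest erythroid marker level of the knockouts. Without that liver, and with no covariate, Gls2 was at -1.06. Got2 (-0.73, SE 0.26) and Gpt2 (0.28, SE 0.37) were not called with the covariate. Glul, the glutamine synthetase that takes up remaining ammonia in pericentral cells, had 151, 153, 193 and 252 CPM in knockout livers, against 266, 243, 226 and 252 CPM in control livers. The groups overlapped through knockout 278, and Glul did not pass the test (-0.40, SE 0.15, adjusted p = 0.0825). It did pass without that liver (-0.57), in limma-voom (-0.47), in DESeq2 (-0.39) and with no low-count filter (-0.40). Outside the naming rule, and chosen after their values were seen, Glud1 (glutamate dehydrogenase, -0.32) and Slc38a3 (a glutamine transporter, -0.36) fell.

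Of 26 tested genes that use arginine and ornithine, 2 rose and 6 fell, beside 9.27% called higher and 11.4% called lower among all genes tested. The creatine pathway split, since Gatm, which starts creatine synthesis from arginine, rose to 114 ± 15.01 CPM in knockout livers, against 67.4 ± 6.80 CPM in the controls. Gamt, the next enzyme, fell to 50.4 ± 2.15 CPM in knockout livers, against 88.3 ± 3.84 CPM in the controls (SD over 4 livers). Their log2 fold changes were 0.76 (SE 0.10, adjusted p = 6.02e-05) and -0.81 (SE 0.08, adjusted p = 3.65e-06) in edgeR. Aldh4a1, of proline breakdown, fell by 0.67 on the log2 scale (SE 0.09, adjusted p = 5.11e-05). Odc1, which turns ornithine into putrescine, fell (-1.17, SE 0.20), and Nos3, the endothelial nitric oxide synthase, rose (1.22, SE 0.23); both were chosen after their values were seen. Sinusoidal endothelial markers rose in the same livers (5 of 7, median 0.42), with a summed level of 1008 to 1192 CPM in knockout livers and 790 to 860 CPM in control livers, and their part in the Nos3 result was not tested.

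Among the other carbonic anhydrases 0 of 9 tested genes rose and 3 fell, with a median log2 fold change of -0.38. The shares over all genes tested were 9.27% higher and 11.4% lower. At an unadjusted p under 0.05 in edgeR, 0 rose and 4 fell, and 0 rose in DESeq2. Car3, a cytosolic form abundant in liver and muscle, fell to 5.86, 8.82, 10.8 and 25.2 CPM in knockout livers, against 136, 187, 202 and 156 CPM in control livers. Its log2 fold change was -3.75 (SE 0.48, adjusted p = 0.0026), the nearest to that of Car5a in the list, and knockout 278 was the highest knockout for both. Car14, a membrane form, fell to 7.19 ± 1.93 CPM in knockout livers, against 20.8 ± 3.90 CPM in control livers (-1.53, SE 0.19, adjusted p = 3.11e-05). Car2, a cytosolic form abundant in red cells, fell to 128 ± 38.5 CPM in knockout livers, against 404 ± 49.5 CPM in control livers (-1.65, SE 0.20, adjusted p = 5.14e-04). With the erythroid covariate Car2 was at -0.21 (SE 0.22), Car3 at -1.95 (SE 1.02) and Car14 at -1.63 (SE 0.63), none of them called.

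Of 13 other users and carriers of bicarbonate, 3 rose and 2 fell, beside 9.27% called higher and 11.4% called lower among all genes tested. Slc4a4, a sodium bicarbonate cotransporter, rose to 365 ± 64.0 CPM in knockout livers, against 248 ± 10.3 CPM in control livers (0.56, SE 0.11, adjusted p = 0.00125). With the erythroid covariate it was at 0.14 (SE 0.30) and not called. Mccc2 and Pcca, subunits of mitochondrial carboxylases of leucine and propionate breakdown, fell, at -0.88 (SE 0.13, adjusted p = 1.54e-04) and -0.47 (SE 0.08, adjusted p = 7.14e-04). Pcx, pyruvate carboxylase, which uses the same mitochondrial bicarbonate, averaged 667 ± 42.8 CPM in knockout livers and 748 ± 98.3 CPM in control livers (-0.17, SE 0.10, adjusted p = 0.252). Pcx was chosen for its role after its value was seen. Acacb (0.97, SE 0.21) and Acaca (0.49, SE 0.11), carboxylase genes of the same list, rose and are named after their values were seen.

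Of 17 regulators, 2 rose and 2 fell, near the 20.7% of all genes tested that were called in either direction. Gcgr, the receptor for glucagon, a hormone that induces urea cycle enzymes, rose to 78.3 ± 6.21 CPM in knockout livers, against 58.6 ± 2.49 CPM in the controls (SD over 4 livers; 0.42, SE 0.09, adjusted p = 0.00224). With the erythroid covariate Gcgr was at 0.27 (SE 0.26) and not called. The transcription factor gene Cebpb rose (0.45, SE 0.12, adjusted p = 0.0104), a call lost without knockout 278 and control 282 together (0.36). Ppara, a nuclear receptor of fasting metabolism, fell (-0.25, SE 0.08, adjusted p = 0.0283). That call was lost without knockout 275 (-0.23), knockout 278 (-0.23), control 279 (-0.25) or control 282 (-0.23), and with library size alone (-0.18), upper-quartile scaling (-0.22) or no low-count filter (-0.25). The log2 fold change was -0.20 without knockout 278 and control 282 together, also not called. The other regulator that fell, Nr1h4, was at -0.39 (SE 0.13, adjusted p = 0.0492 in edgeR) and is named after its value was seen. The number of regulators that fell was 0 without knockout 275 or control 282, and 1 without any other single library. Hnf4a and Cebpa, liver transcription factor genes chosen after their values were seen, were at 0.07 (SE 0.08) and -0.05 (SE 0.10), with adjusted p of 0.617 and 0.799.

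**Figure D4:**
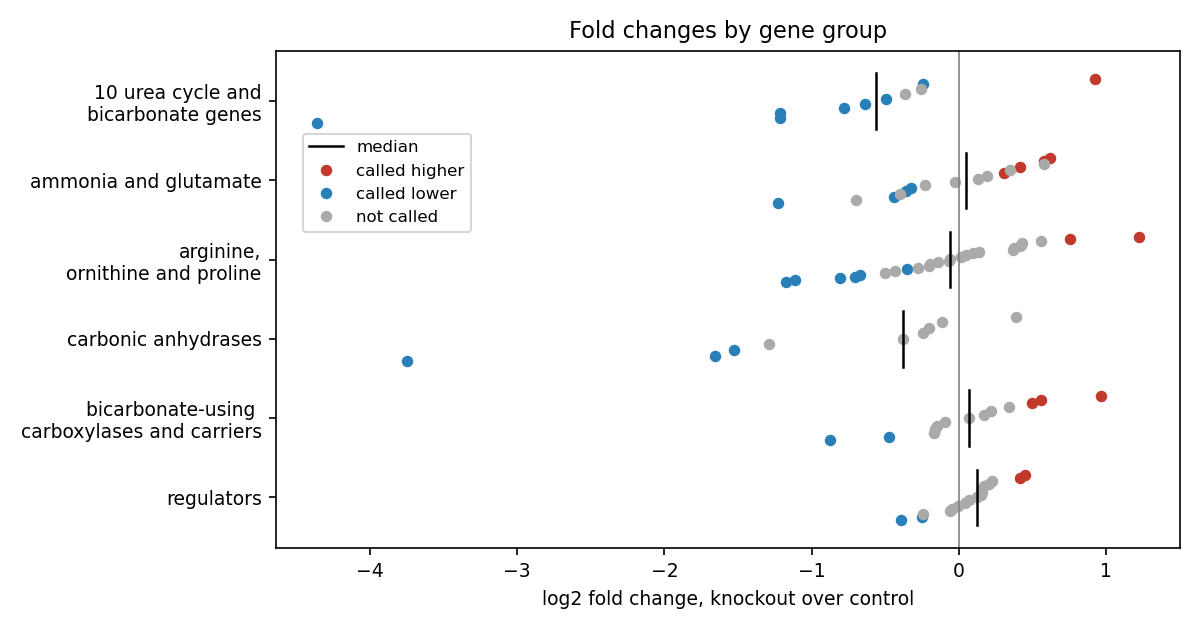
Log2 fold change of each tested gene, knockout over control (horizontal axis), in the 10 urea cycle and bicarbonate genes and in 5 groups of related genes; colours give the call and black lines the median of each group. The median is -0.56 for the 10 genes, -0.38 for the other carbonic anhydrases and between -0.06 and 0.13 for the other groups.

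The genes next to the 10 on their chromosomes were also examined. The nearest tested protein-coding genes on either side of the 10 genes numbered 20, of which 4 fell and 1 rose, so that 5 of 20 were called beside 20.7% of all genes. On the side of lower coordinates, Car5a has Slc7a5, an amino acid exchanger, 8.43 kb away, which fell (-1.01, SE 0.19, adjusted p = 0.00174). On the other side is Banp, 4.85 kb away (-0.04, SE 0.22, adjusted p = 0.923). Hepatocyte markers did not move as 1 group. Of 7 tested, Alb, Ttr and Apoc3 fell, Ahsg rose and 3 did not pass. Their summed level was 70435 to 84820 CPM in knockout livers and 95341 to 121075 CPM in control livers, with Alb the most abundant of them. Of enterocyte markers, which matter because gut epithelium also expresses Cps1 and Otc, Sis and Alpi were near 0 and the summed level of the 5 was 44.4 to 63.0 CPM in knockout livers and 39.6 to 47.7 CPM in control livers. Fabp2 gave most of it, and 1 of the 3 tested, Vil1, rose, a call lost without knockout 275 or 277 or control 280 or 282.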

How the data were processed

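RNA was extracted from whole liver of 4 Myo5b knockout and 4 control pups, per the labels. The deposited values are whole-number counts of reads for each Ensembl gene. The authors aligned reads with Rsubread 2.20.0 in R 4.4.1, per the labels' protocols. Counting used featureCounts, according to the submitters' processing notes. GRMm38, the build as written, was read as GRCm38. For annotation, strand setting and multiply mapped reads, the settings were not given in the sources used here. The authors used DESeq2 1.46.0, per the series' design text; none of its output was used here.

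Of 48440 genes, 48058 matched a GENCODE M21 symbol. Counts were filtered by filterByExpr (minimum count 10, minimum total count 15), scaled by TMM and tested with edgeR 4.0.16 (limma 3.58.1, DESeq2 1.42.0 and R 4.3.3 for alternatives), by the robust quasi-likelihood test with Benjamini-Hochberg adjustment over all 18274 genes. The SE is the log2 fold change divided by the square root of F. The fit was checked on simulated counts. Each library is 1 animal, and no pair within a group agreed within sampling noise (chi-square per degree of freedom 12.9 to 24.0). Exon lengths are merged GENCODE M21 exons. The planned protein comparison was not made.

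The 10 genes, the related lists, and the cell type lists (hepatocyte, erythroid, macrophage, endothelial, stellate, cholangiocyte, megakaryocyte, enterocyte and pancreatic acinar) were chosen with earlier results of these data known. Named genes are the 10, Myo5b, their paralogs, Glul, Gls2 and the 3 smallest p of each related list at a mean of at least 1 CPM. CpG counts, count ratios and neighbouring genes were chosen after the data were seen. Alternatives were other scalings, filters and tests, leaving out the 10 genes above 1% of counts, an erythroid covariate and omission of libraries. Figures were drawn with matplotlib 3.10.9.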

Additional observations from a re-analysis of the deposited data

Results flagged for a closer look

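In 66 groups of 4 livers examined, 2 had 1 liver far from the other 3, and chance alone gives about 1 in 20. Slc7a1 was 29.4 CPM in knockout 278, against 19.1 to 19.5 CPM in the other knockouts. Cebpb was 33.3 CPM in knockout 275, against 38.6 to 39.3 CPM in the other knockouts. Neither is one of the 10 urea cycle and bicarbonate genes.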

How the results depend on the processing

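The erythroid covariate changed the counts most. With it 23 genes were higher and 20 lower over all genes tested (1694 and 2088 without it), 0 of the 10 genes were higher and 0 lower, and 0 related genes were higher and 2 lower. Glul (0.48) and Slc7a1 (0.50) changed sign in that fit. The covariate nearly coincides with genotype, and the cause of the loss was not tested. With library size alone 2300 genes were higher and 1696 lower, so the balance of directions depends on scaling, while 6 of the 10 genes still fell and 1 rose. With 1 library left out, 1223 to 1762 genes were higher and 1699 to 2167 lower, 6 to 7 of the 10 fell and 1 rose, and 10 to 12 related genes rose and 14 to 18 fell. Car5b ran from -0.37 to 0.19. Without knockout 278 and control 282 together, 7 of the 10 fell and 1 rose. With the longest transcript in place of merged exons, control levels per kilobase were 71.3 for Otc, 121 for Ass1, 54.5 for Asl, 242 for Arg1, 72.2 for Slc25a13, 49.4 for Slc25a15 and 28.4 for Slc7a2; the order of the genes depends on the length used, and Nags (10.3) then came below Car5a (10.5). The controls were littermates, but the labels do not list the litter of each pup. No paired analysis was therefore possible, and litter was not modelled. Depth limits Car5a in knockout livers, Car5b, Slc25a2 and Slc7a3.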

Other observations

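Cell types that the comparisons did not use gave mixed values. Of 7 stellate markers, 2 rose and 2 fell, with a median log2 fold change of -0.07; 1 rose without knockout 276 or 277 or control 279 or 282, and 1 fell without knockout 275, 276 or 277 or control 279 or 280. Of 5 megakaryocyte markers, 3 fell, with a median of -0.67. Of 6 cholangiocyte markers, 0 were called in edgeR or DESeq2 and 0 had an unadjusted p under 0.05 in edgeR, while 1 rose without control 280. The 5 pancreatic acinar markers were too low to be tested, with a summed level of at most 1.33 CPM in knockout livers and 1.12 CPM in control livers.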
